A study of Mus musculus with 25 samples.

Results

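The genes described here are 9 outputs of the circadian clock in lumbar dorsal root ganglia of mice: the transcription factors Dbp, Tef, Hlf, Nfil3, Bhlhe40, Bhlhe41 and Klf9, the clock repressor Ciart and the deubiquitinase Usp2. They were selected by name, with the low level of Dbp in operated mice already known from these arrays, and the probe set of each gene was chosen by its mean level over all 25 arrays. Each of the 9 genes had only 1 probe set, so that choice removed none. All 9 passed the limit on brightness, a mean above 4.52 on the log2 scale, among 20603 genes that passed of 30740 genes on the array.

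The tissue was the L3-L5 ganglia, the site of the sensory neuron cell bodies that serve the knee, of male C57BL/6 mice. DMM mice had the medial meniscus of the right knee destabilized at 10 weeks of age, a surgical model of knee osteoarthritis, sham mice had a sham operation at that age, and naive mice had no surgery. Tissue was taken 4, 8 and 16 weeks after surgery (14, 18 and 26 weeks of age), and from naive mice of the same ages, with 3 arrays in each of 8 groups and 1 array in the sham group at 8 weeks. The labels do not give the number of animals per array, so p-values measure the spread between these samples, which may in part be technical. They do not give the time of day of collection either, and whether it differed between groups could not be tested. For clock genes, a difference in collection time between groups cannot be told apart from one of treatment or age.

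The clock is a feedback loop. BMAL1 (encoded by Arntl) and CLOCK bind E-boxes and switch on their own repressors, the PER, CRY and REV-ERB proteins, together with output factors that carry the rhythm to other genes. DBP, TEF and HLF are PAR bZIP factors that activate genes through the D-box, and NFIL3 represses through the same element. BHLHE40 and BHLHE41 (DEC1 and DEC2) are basic helix-loop-helix repressors that bind E-boxes, CIART (CHRONO) represses CLOCK-BMAL1 directly, and REV-ERB represses Arntl and Nfil3 through RORE elements.

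The promoters that hold these elements are shown because the genes that differed most between groups, Ciart and Dbp, belong to the arm known to be driven by E-boxes, and Arntl and Nfil3 to the arm known to be driven by RORE elements. Windows of 300 bases (250 before and 50 after each RefSeq start, GRCm38.p6) were found for 8 of the 9 genes, as 9 windows. The E-box letters CACGTG, which read the same on both strands, were present in at least 1 copy in 7.15% of all 32851 windows in the RefSeq table. Ciart held 3 copies, at -116, -58 and -44 (the base just before the start is -1), and 0.0883% of all windows held 3 or more. Bhlhe41 held 1 copy at -153, and Tef 1 in each of its 2 windows, at -127 and -138. The window of Dbp held none, and 3 of the 8 genes with a window held the letters. The lines below give the 250 bases before the start, 5′ to 3′ on the gene's strand, with the E-box in capitals: Ciart at chr3:95882229-95882478 (minus strand), Bhlhe41 at chr6:145865421-145865670 (minus strand), and Tef at chr15:81802423-81802672 and chr15:81811164-81811413 (plus strand).
Ciart: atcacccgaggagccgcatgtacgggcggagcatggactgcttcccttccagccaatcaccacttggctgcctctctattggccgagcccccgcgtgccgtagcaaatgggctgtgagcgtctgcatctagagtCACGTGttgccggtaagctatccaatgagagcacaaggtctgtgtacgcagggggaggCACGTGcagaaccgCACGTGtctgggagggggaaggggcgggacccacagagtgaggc
Bhlhe41: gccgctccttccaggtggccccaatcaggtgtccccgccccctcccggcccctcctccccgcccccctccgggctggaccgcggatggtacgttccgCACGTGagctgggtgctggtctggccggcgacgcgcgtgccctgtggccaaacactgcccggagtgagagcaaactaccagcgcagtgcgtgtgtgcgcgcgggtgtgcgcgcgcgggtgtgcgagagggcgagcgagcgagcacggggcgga
Tef, first window: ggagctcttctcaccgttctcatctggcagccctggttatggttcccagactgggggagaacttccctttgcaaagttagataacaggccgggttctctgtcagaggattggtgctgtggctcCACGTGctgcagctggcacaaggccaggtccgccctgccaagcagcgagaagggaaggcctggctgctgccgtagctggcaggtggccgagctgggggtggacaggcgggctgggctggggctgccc
Tef, second window: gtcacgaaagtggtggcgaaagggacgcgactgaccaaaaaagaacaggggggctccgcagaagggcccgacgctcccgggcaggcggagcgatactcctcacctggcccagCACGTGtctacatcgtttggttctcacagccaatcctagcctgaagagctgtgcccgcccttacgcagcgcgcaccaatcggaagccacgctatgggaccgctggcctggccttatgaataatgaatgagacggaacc

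The RORE letters TNGGTCA, searched on both strands, occurred in 11% of all windows. They were found in Arntl, in Nfil3 (on the opposite strand, at -12) and in the second window of Tef. Arntl held them at -200 and -181 in its first window and at -246, -227 and 30 in its second. The sites at -246 and -227 are the same bases as those of the first window. Shown are 30 bases around the site at position 30 after the second Arntl start (chr7:113207530-113207559, plus strand) and around the Nfil3 site (chr13:52981033-52981062, read on the gene's minus strand, where the capitals are the reverse complement of the RORE letters).
Arntl: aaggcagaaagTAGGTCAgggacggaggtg
Nfil3: gcgctcggaacTGACCTActaacacacatc

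Of the other letters searched on both strands, TGACGTCA (the cyclic AMP response element, 1.79% of windows) was present in Hlf at -9. The D-box letters TTANGTAA (2.32% of windows) and the E-box variant CACGTT (4.68%) were in none of the 9 windows. These matches describe the letters in the windows and do not show binding.

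Levels of the 9 genes spanned a wide range of log2 intensity, averaged over the 25 arrays. Klf9 was brightest at 11.06, Bhlhe41 and Dbp stood at 9.10 each, Bhlhe40 at 8.14, Tef at 7.18, Usp2 at 6.52, Hlf at 6.22, Ciart at 6.06 and Nfil3 at 5.04. A probe set's brightness also depends on its sequence, so these levels do not rank the genes. The median of the negative control probe sets lay between 5.06 and 5.35 on each array. Nfil3 was above that median on 5 of the 25 arrays and the other 8 genes on all 25, so differences in Nfil3 are differences near background. Ciart was above it on all arrays but close to it in DMM mice: it read 5.18 against a control median of 5.14 on DMM replicate 2 of 4 weeks and 5.33 against 5.22 on DMM replicate 1 of 8 weeks. The lowest value of Hlf, 5.34 on DMM replicate 2 of 8 weeks, stood against 5.15. The mean of the 16 sensory neuron markers tested, among them Uchl1 (17.15 over the 25 arrays) and Rbfox3 (12.01), lay between 14.4 and 14.7 on every array. Arrays of a group correlated between 0.993 and 0.998 over the genes tested.

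**Figure D1:**
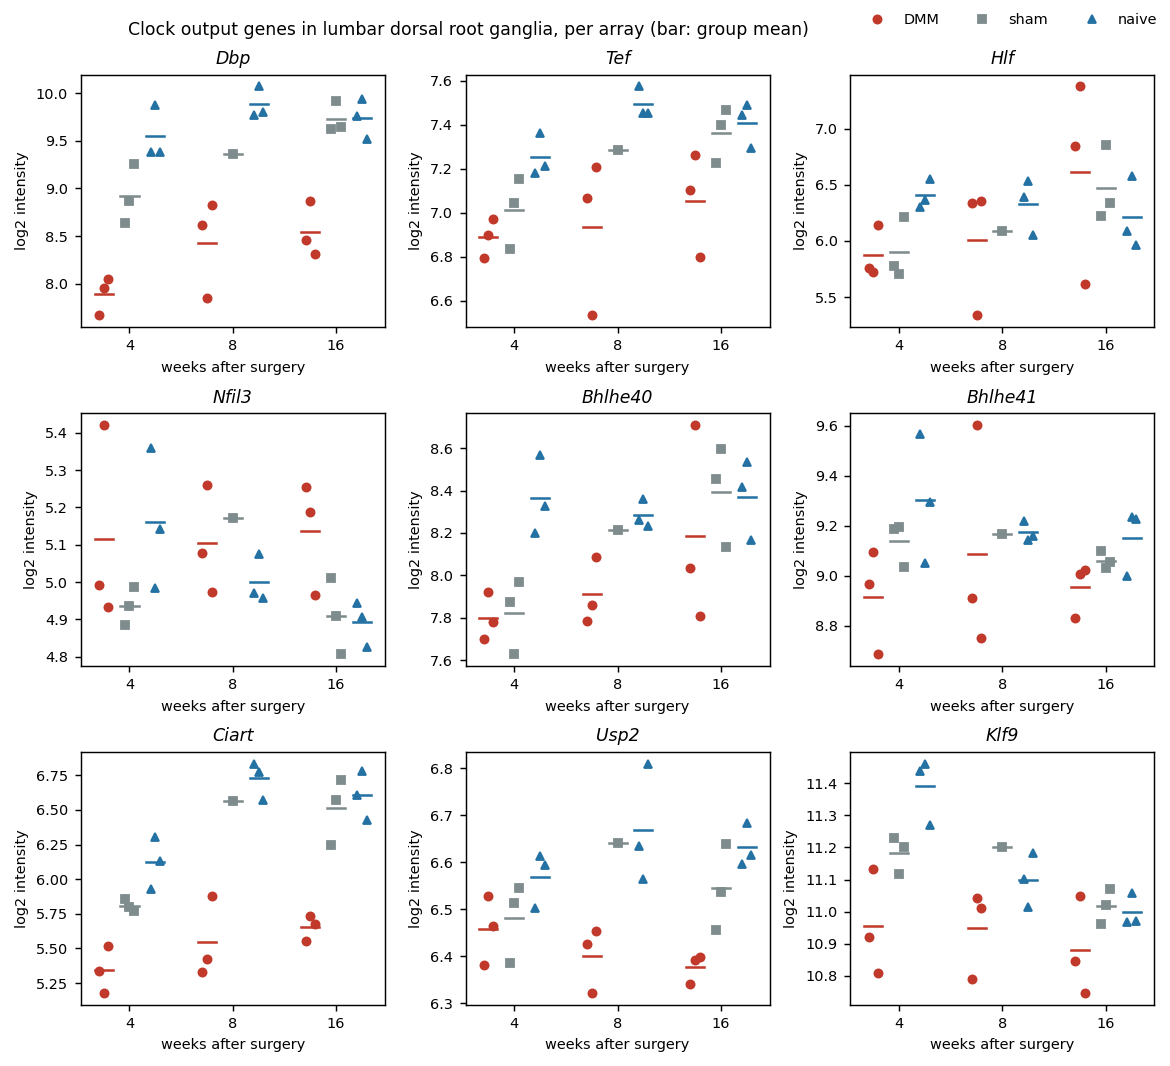
Log2 intensity (vertical axis) of each of the 9 genes on each array at 4, 8 and 16 weeks after surgery (horizontal axis), with DMM, sham and naive arrays side by side and bars at group means. The DMM points of Dbp, Tef and Ciart lie below the naive points at each time, and the 3 DMM points of Hlf at 16 weeks are spread from 5.61 to 7.38.

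Dbp, the PAR bZIP factor whose rhythm is among the strongest in most tissues, read lower in DMM ganglia than in sham or naive ganglia of the same time. At 4 weeks it read 7.67, 7.95 and 8.05 on the DMM arrays, 8.64, 8.87 and 9.25 on the sham arrays, and 9.39, 9.88 and 9.39 on the naive arrays. At 8 weeks it read 8.61, 7.85 and 8.83 on the DMM arrays, 9.36 on the sham array, and 9.77, 10.07 and 9.80 on the naive arrays. At 16 weeks it read 8.46, 8.87 and 8.31 on the DMM arrays, 9.62, 9.92 and 9.64 on the sham arrays, and 9.76, 9.94 and 9.51 on the naive arrays. Each DMM array was below each sham and naive array of its time, and each of the 9 DMM arrays was below each of the 9 naive arrays. Sham arrays lay between DMM and naive at 4 weeks, and mixed with naive at 16 weeks.

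Ciart, the repressor of CLOCK-BMAL1, had the same arrangement. At 4 weeks it read 5.34, 5.18 and 5.52 on the DMM arrays, 5.86, 5.80 and 5.77 on the sham arrays, and 5.93, 6.31 and 6.13 on the naive arrays. At 8 weeks it read 5.33, 5.42 and 5.88 on the DMM arrays, 6.56 on the sham array, and 6.83, 6.77 and 6.57 on the naive arrays. At 16 weeks it read 5.55, 5.73 and 5.67 on the DMM arrays, 6.25, 6.57 and 6.71 on the sham arrays, and 6.61, 6.78 and 6.43 on the naive arrays. Each DMM array was again below each sham and naive array of its time.

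The order of the group means of Ciart, from low to high, was 5.34, 5.54 and 5.65 in DMM at 4, 8 and 16 weeks, 5.81 in sham at 4 weeks, 6.12 in naive at 4 weeks, 6.51 in sham at 16 weeks, 6.56 in sham at 8 weeks, 6.61 in naive at 16 weeks and 6.73 in naive at 8 weeks. Neighbours in this order did not overlap between DMM at 16 weeks and sham at 4 weeks and between sham and naive at 4 weeks; all other neighbours did, or held the lone sham array within the other group's range. For Dbp the 3 lowest means were also those of DMM (7.89, 8.43 and 8.54 at 4, 8 and 16 weeks). Sham at 4 weeks followed at 8.92, and its arrays overlapped with those of DMM at 16 weeks.

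Of the 9 genes, 8 had a lower mean in DMM than in naive mice averaged over the 3 times, and 2 of them, Dbp and Ciart, passed the test. Dbp fell by 1.44 ± 0.13 on the log2 scale (SE; DMM at 0.370 of the naive level, limma adjusted p = 3.34e-06). Ciart fell by 0.97 ± 0.08 (a DMM signal at 0.510 of the naive one, limma adjusted p = 2.48e-06). With the DMM values of Ciart this close to the negative controls, its folds are ratios of array signal, and how they relate to ratios of RNA was not tested. The test called 10 of 20603 genes, which is 0.0485%, so the 2 genes are 2 of those 10. Both were past the threshold in every alternative tried, except that Ciart is not measured where probe sets with 2 names are left out. The median difference of the 9 genes was -0.24, beside -0.01 over all genes tested.

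The other 7 genes did not pass, and 5 of them had an unadjusted p under 0.05 in limma, beside 1509 of the 20603 genes tested (7.32%). Tef differed by -0.43 ± 0.08 (95% interval -0.59 to -0.26) and Usp2, the deubiquitinase that acts on clock proteins, by -0.21 ± 0.04 (-0.29 to -0.13), both with a limma adjusted p of 0.0615. Klf9, a zinc finger factor induced by glucocorticoids, differed by -0.24 ± 0.05 (limma adjusted p = 0.148) and Bhlhe40 by -0.37 ± 0.10 (limma adjusted p = 0.292). Bhlhe41 differed by -0.22 ± 0.09 (limma adjusted p = 0.635), Hlf by -0.15 ± 0.19 (limma adjusted p = 0.905) and Nfil3 by 0.10 ± 0.07 (limma adjusted p = 0.781). Tef and Usp2 lay close to the threshold: without DMM replicate 2 of 16 weeks Tef (adjusted p = 0.0296) and Bhlhe40 (-0.46, adjusted p = 0.0232) passed, without DMM replicate 2 or 3 of 8 weeks Tef did (adjusted p = 0.0382 and 0.0163), and without DMM replicate 3 of 16 weeks or naive replicate 2 of 8 weeks Usp2 did (adjusted p = 0.0494 and 0.0334).

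**Figure D2:**
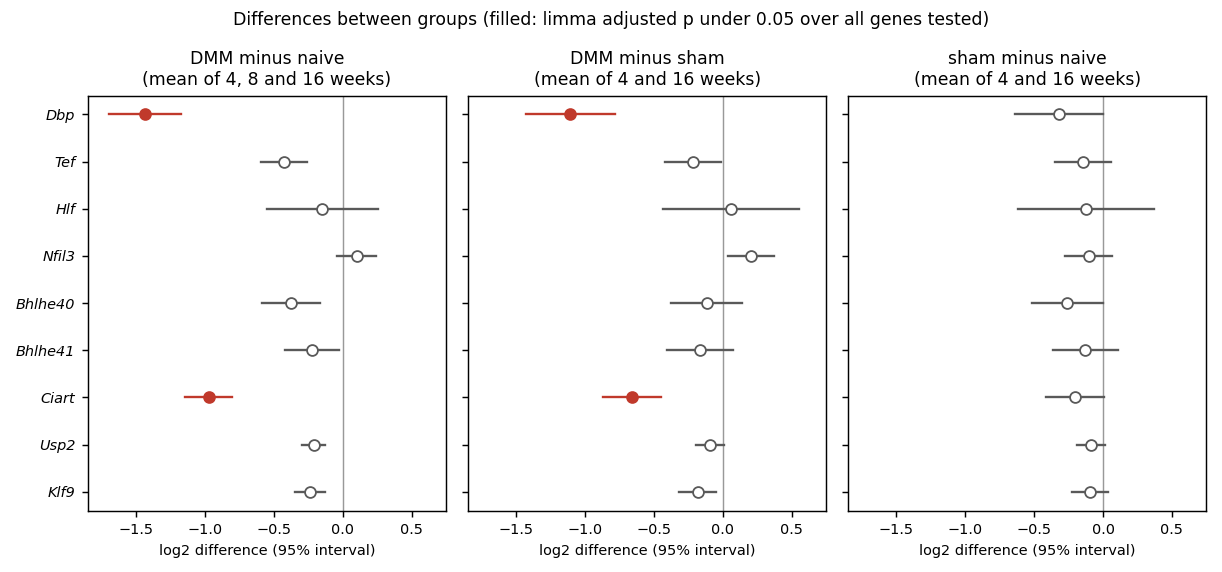
Log2 difference (horizontal axis) of each gene (vertical axis) in DMM minus naive, DMM minus sham and sham minus naive mice, with 95% intervals of the limma fit; filled symbols have an adjusted p under 0.05. Dbp and Ciart are filled in both DMM comparisons, and no gene is filled in sham minus naive.

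Tef, the second PAR bZIP factor, read 6.79, 6.90 and 6.97 on the DMM arrays, 6.84, 7.04 and 7.15 on the sham arrays, and 7.18, 7.37 and 7.21 on the naive arrays at 4 weeks. At 8 weeks it read 7.07, 6.53 and 7.21 on the DMM arrays, 7.29 on the sham array, and 7.58, 7.46 and 7.45 on the naive arrays. At 16 weeks it read 7.10, 7.26 and 6.80 on the DMM arrays, 7.23, 7.4 and 7.47 on the sham arrays, and 7.45, 7.49 and 7.30 on the naive arrays. DMM and naive arrays of a time did not overlap at any of the 3 times, while DMM and sham arrays overlapped at 4 and 16 weeks.

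Arrays of Dbp, Tef and Ciart were thus all lower in DMM than in naive mice of the same time at 4, 8 and 16 weeks, which is 3 of the 9 genes, beside 9 of 20603 genes tested (0.0437%). With the times pooled, Dbp and Ciart were the only 2 genes of the 20603 (0.00971%) whose 9 DMM arrays all lay below the 9 naive arrays. Against sham, all DMM arrays of Dbp and Ciart were lower than the sham arrays of their time at 4 and 16 weeks, beside 55 genes tested (0.267%).

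At 4 weeks 1 of the 9 genes, Dbp, passed in DMM against naive mice. It fell by 1.66 ± 0.22 (DMM at 0.317 of the naive level, limma adjusted p = 0.00311), beside 0.00971% of genes tested. Without DMM replicate 1 or naive replicate 2 of 4 weeks its adjusted p was 0.0504 or, rounded, 0.05, and in both cases just above the threshold. All 9 genes had a lower mean in DMM at this time, with a median of -0.44 against -0.03 over all genes. Ciart differed by -0.78 ± 0.14 (limma adjusted p = 0.117), Bhlhe40 by -0.56 ± 0.17 (limma adjusted p = 0.385) and Klf9 by -0.44 ± 0.09 (limma adjusted p = 0.169).

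At 8 weeks Ciart fell by 1.18 ± 0.14 (limma adjusted p = 0.000691) and Dbp fell by 1.45 ± 0.22 (limma adjusted p = 0.00836), 2 of the 9 genes beside 0.0534% of genes tested. Without naive replicate 2 of 8 weeks Dbp missed the threshold (-1.35, adjusted p = 0.0705). Tef differed by -0.56 ± 0.14 (limma adjusted p = 0.171) and Usp2 by -0.27 ± 0.07 (limma adjusted p = 0.175).

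At 16 weeks Ciart fell by 0.96 ± 0.14 (limma adjusted p = 0.0117), 1 of the 9 genes beside 0.0243% of genes tested, and Dbp differed by -1.20 ± 0.22 with a limma adjusted p of 0.0571. When DMM replicate 1 of 16 weeks was left out, Ciart missed the threshold (adjusted p = 0.0757), as it did when naive replicate 1 (0.0885) or 2 (0.0781) was, and Dbp passed it without DMM replicate 2 or 3 (adjusted p = 0.0449 and 0.0305). With only the arrays compared in the fit, neither gene passed at any of the 3 times.

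**Figure D3:**
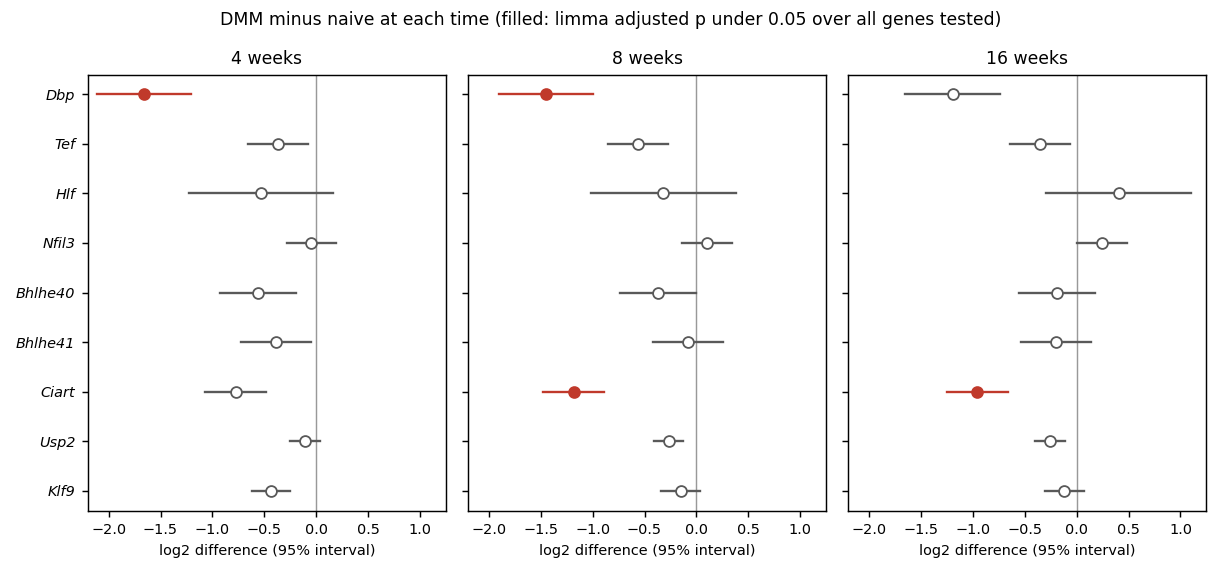
Log2 difference in DMM minus naive mice (horizontal axis, with 95% intervals of the limma fit) of each gene (vertical axis) at 4, 8 and 16 weeks after surgery; filled symbols have an adjusted p under 0.05. Dbp is filled at 4 and 8 weeks and Ciart at 8 and 16 weeks, and the intervals of each gene at the 3 times overlap.

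The 3 times were compared directly. None of the 9 genes had a difference between DMM and naive mice that changed from 4 to 16 weeks or from 4 to 8 weeks in limma, where 1 and 0 of 20603 genes passed (0.00485% and 0%), nor one between DMM and sham mice that changed from 4 to 16 weeks (0% of genes). At an unadjusted p under 0.05, these 3 tests held 2149, 1810 and 1198 genes, among them 1, 1 and 0 of the 9 genes. The gene was Klf9 in both cases, with changes of 0.32 ± 0.13 (16 minus 4 weeks) and 0.28 ± 0.13 (8 minus 4 weeks). The interval for the change of Dbp from 4 to 16 weeks ran from -0.18 to 1.11 and that of Ciart from -0.59 to 0.24.

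DMM against sham mice asks what differs beyond the operation itself, and was averaged over 4 and 16 weeks, since the sham group at 8 weeks is 1 array. Dbp fell by 1.11 ± 0.15 (DMM at 0.464 of the sham level, limma adjusted p = 0.00728) and Ciart by 0.66 ± 0.10 (DMM at 0.632 of the sham level, limma adjusted p = 0.0157). These 2 genes and Arntl were the 3 genes that passed, 0.0146% of those tested. Dbp passed in all 23 alternatives. Ciart missed the threshold when any 1 of 8 of the 12 arrays was left out (DMM replicates 1 and 2 and sham replicates 1, 2 and 3 of 4 weeks, DMM replicate 1 and sham replicates 2 and 3 of 16 weeks), with an adjusted p of up to 0.0873 and a difference of -0.61 to -0.67. In the same comparison all 18 macrophage markers tested (median 0.28, 10 at an unadjusted p under 0.05) and all 18 fibroblast and meningeal markers (median 0.36, 1 at an unadjusted p under 0.05) had a higher mean in DMM than in sham mice, with 0 of either list past the threshold in limma. Their part in the differences of Dbp and Ciart was not tested.

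The other 7 genes did not pass against sham. Klf9 differed by -0.18 ± 0.06, Tef by -0.22 ± 0.10, Usp2 by -0.09 ± 0.05 and Nfil3 by 0.20 ± 0.08, each with a limma adjusted p of 0.957. At 4 weeks alone 0 of the 9 genes and 0 of all genes (0%) passed in limma, with 3 of the 9 and 963 genes at an unadjusted p under 0.05. There Dbp differed by -1.03 ± 0.22 (limma adjusted p = 0.402) and Ciart by -0.46 ± 0.14 (limma adjusted p = 0.986). At 16 weeks alone 0 of the 9 passed in limma, beside 1 gene in all (0.00485%). At an unadjusted p under 0.05 were 4 of the 9, beside 1324 genes (6.43%). There Dbp differed by -1.18 ± 0.22 (limma adjusted p = 0.194) and Ciart by -0.86 ± 0.14 (limma adjusted p = 0.0741). Ciart passed at 16 weeks without sham replicate 1 (-0.99, adjusted p = 0.0240).

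Sham and naive mice compare the operation with none, and share the sham and naive arrays used above. Averaged over 4 and 16 weeks, 0 of the 9 genes and 0 genes in all (0%) passed in limma, with 1 of the 9 genes (Bhlhe40, -0.26 ± 0.12) and 1145 genes at an unadjusted p under 0.05. Dbp differed by -0.32 ± 0.15 (95% interval -0.64 to 0.00037) and Ciart by -0.21 ± 0.10 (-0.41 to 0.0034), both with a limma adjusted p of 0.849.

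At 4 weeks the means of all 9 genes were lower in sham than in naive mice, with a median of -0.24 against -0.05 over all genes, and 0 of the 9 passed in limma beside 0.306% of genes. Dbp differed by -0.63 ± 0.22 (limma adjusted p = 0.162), Bhlhe40 by -0.54 ± 0.17 (limma adjusted p = 0.137), Ciart by -0.31 ± 0.14 (limma adjusted p = 0.281) and Klf9 by -0.21 ± 0.09 (limma adjusted p = 0.261). These 4 had an unadjusted p under 0.05, beside 3264 genes (15.8%). The sham arrays all lay below the naive arrays for 6 of the 9 genes (Dbp, Tef, Hlf, Bhlhe40, Ciart and Klf9), beside 16.6% of genes tested. At 16 weeks this was so for 0 of the 9 genes, beside 5.42% of genes tested. The differences there were -0.01 ± 0.22 for Dbp and -0.10 ± 0.14 for Ciart, and 0 of the 9 genes passed in limma at either the adjusted or the unadjusted threshold, beside 0.00485% of genes (adjusted) and 2195 genes (unadjusted).

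Hlf, the third PAR bZIP factor, varied most between arrays of a group, with a residual SD of 0.446, larger than that of 99.1% of the genes tested. At 16 weeks it read 6.85, 7.38 and 5.61 on the DMM arrays, 6.22, 6.86 and 6.34 on the sham arrays, and 6.09, 6.58 and 5.96 on the naive arrays. At 8 weeks it read 6.34, 5.34 and 6.35 on the DMM arrays, 6.08 on the sham array, and 6.40, 6.54 and 6.06 on the naive arrays. At 16 weeks the DMM arrays held both the highest and the lowest value of the 9 arrays, and at 8 weeks DMM replicate 2 was the lowest while the other DMM arrays lay within the range of naive. At 4 weeks it read 5.76, 5.72 and 6.14 on the DMM arrays, 5.77, 5.71 and 6.21 on the sham arrays, and 6.30, 6.37 and 6.55 on the naive arrays, so that DMM and sham overlapped and both lay below naive.

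The level of Hlf followed the markers of fibroblasts and meninges, the connective tissue sheath of the ganglion, from array to array. The mean of the 18 measured markers of that list (19 listed, among them Slc6a13, Crabp2 and Igfbp2) was 10.25, 10.95 and 8.46 on the 3 DMM arrays of 16 weeks and 9.61, 8.36 and 9.61 on those of 8 weeks. Hlf had the same order on the DMM arrays of 16 weeks, and on those of 8 weeks the same array was lowest. As deviations from group means over 24 arrays, Hlf and this mean had r = 0.98. At 16 weeks the mean of the markers spanned 8.46 to 10.95 over the DMM, 9.26 to 10.02 over the sham and 8.69 to 9.38 over the naive arrays, and all 18 markers had a higher mean in DMM than in naive mice there (median 0.66, 0 of 18 past the threshold in limma, 9 at an unadjusted p under 0.05). In bulk tissue, fewer cells of a type and less RNA per cell cannot be told apart.

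Dbp, Tef and Bhlhe40 followed the same markers less closely, with r = 0.65, 0.70 and 0.63 within groups, and Ciart, Usp2 and Klf9 had r = 0.27, -0.02 and 0.10. Of the 18 markers, 14 had a higher mean in DMM than in naive mice over the 3 times (median 0.25) and 0 passed in limma, with 1 at an unadjusted p under 0.05. In sham against naive mice at 4 weeks, where 6 of the 9 genes did not overlap, all 18 markers were lower in sham (median -0.45, 0 past the threshold in limma, 2 at an unadjusted p under 0.05). All 18 macrophage markers were lower there too (median -0.53), of which 4 fell and 16 had an unadjusted p under 0.05, and 1 of 13 endothelial markers fell. The part of the macrophage and endothelial markers in those differences was not tested. The fit with the fibroblast and meningeal mean as a covariate left the count there at 0 of the 9 genes. With the list mean as a covariate in the fit, an alternative chosen after seeing the data, 5 of the 9 genes passed in DMM against naive mice over the 3 times, beside 22 genes in all. Hlf then differed by -0.39 ± 0.05 (limma adjusted p = 0.000313), Tef by -0.50 ± 0.06 (limma adjusted p = 0.000558) and Bhlhe40 by -0.45 ± 0.08 (limma adjusted p = 0.0422). Dbp (-1.54 ± 0.10) and Ciart (-1.0 ± 0.08) differed by slightly more than without the covariate.

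**Figure D4:**
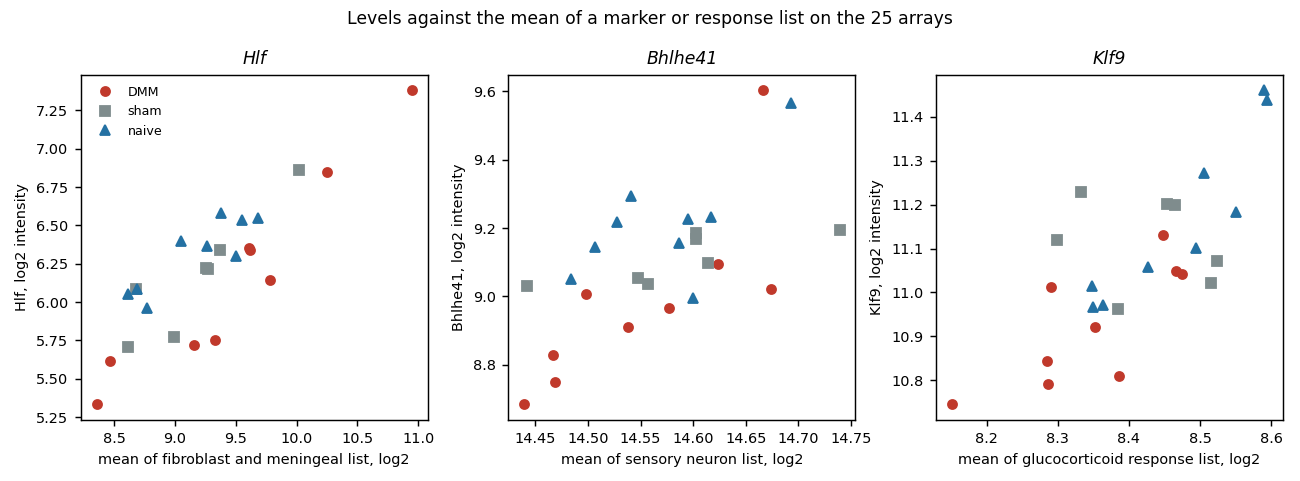
Log2 intensity of Hlf, Bhlhe41 and Klf9 (vertical axes) against the mean log2 intensity of the fibroblast and meningeal, the sensory neuron and the glucocorticoid response list (horizontal axes) on the 25 arrays, by treatment. Hlf and the first list rise together over the whole range, and the DMM array with the highest list mean, 10.95, has the highest Hlf, 7.38.

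The DEC repressors differed from each other. Bhlhe40 read 7.70, 7.92 and 7.78 on the DMM arrays, 7.87, 7.63 and 7.97 on the sham arrays, and 8.2, 8.57 and 8.33 on the naive arrays at 4 weeks, so both operated groups lay below naive. At 16 weeks DMM replicate 2 read 8.71, above every sham and naive array, while the other DMM arrays read 8.03 and 7.81, below all of them. That array also had the highest fibroblast and meningeal mean. Within groups Bhlhe40 followed the endothelial markers (13 genes, such as Pecam1 and Cldn5) with r = 0.77.

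Bhlhe41 ran against Dbp and Tef within groups, with r = -0.71 and -0.72 over 24 arrays, whereas Bhlhe40 ran with Dbp (r = 0.64). It followed the mean of 5 C/EBP genes, a family of bZIP factors, with r = 0.78 and the sensory neuron markers with r = 0.74. Hlf (r = -0.74), Dbp (r = -0.64), Tef (r = -0.64) and Ciart (r = -0.52) ran against these markers. On DMM replicate 2 of 8 weeks Bhlhe41 read 9.60, its highest value, where Dbp (7.85 beside 8.61 and 8.83), Tef (6.53) and Hlf (5.34) were the lowest of their group. The sensory neuron mean on that array was 14.67, beside 14.54 and 14.47 on the other DMM arrays of 8 weeks. Bhlhe41 ranged over all times from 8.69 to 9.60 in DMM (median 8.97), 9.03 to 9.19 in sham (median 9.10) and 9.0 to 9.57 in naive mice (median 9.22).

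Nfil3, the D-box repressor, was the only one of the 9 genes with a higher mean in DMM than in naive mice over the 3 times. It ranged from 4.93 to 5.42 in DMM (median 5.08), 4.81 to 5.17 in sham (median 4.94) and 4.83 to 5.36 in naive mice (median 4.97), so the groups overlapped, at the level of the negative controls.

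Usp2 varied least, with a residual SD of 0.0775, larger than that of only 16.6% of the genes tested. It ranged from 6.32 to 6.53 in DMM (median 6.40), 6.39 to 6.64 in sham (median 6.54) and 6.50 to 6.81 in naive mice (median 6.61). At 16 weeks it read 6.34, 6.39 and 6.40 on the DMM arrays, 6.46, 6.54 and 6.64 on the sham arrays, and 6.6, 6.68 and 6.62 on the naive arrays, with DMM below all others.

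Klf9 ranged from 10.75 to 11.13 in DMM (median 10.92), 10.96 to 11.23 in sham (median 11.12) and 10.97 to 11.46 in naive mice (median 11.10). Within groups it followed the mean of 16 glucocorticoid response genes with r = 0.76. It followed the mean of 5 C/EBP genes with r = 0.70 and the endothelial markers with r = 0.68. Of those 16 response genes, 13 were lower in DMM than in naive mice over the 3 times (median -0.11), and 1 of them, Fam107a, fell (by 0.40 ± 0.07, limma adjusted p = 0.0312). Mt2 differed by -0.47 ± 0.10 (limma adjusted p = 0.156) and Zbtb16 by -0.38 ± 0.10 (limma adjusted p = 0.248).

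Klf9 and Ciart also differed between ages in mice without surgery. In naive mice at 16 against 4 weeks, Klf9 fell by 0.39 ± 0.09 (limma adjusted p = 0.00601) and Ciart rose by 0.49 ± 0.14 (limma adjusted p = 0.0219), 2 of the 9 genes beside 18.6% of all genes tested, so a share of this size is close to the background. Klf9 read 10.97, 11.06 and 10.97 at 16 weeks and 11.44, 11.46 and 11.27 at 4 weeks, without overlap, and passed in all 17 alternatives. Ciart missed the threshold without naive replicate 1 or 3 of 4 weeks or naive replicate 1 or 2 of 16 weeks (adjusted p of up to 0.101). Arntl fell by 0.41 ± 0.12 in the same comparison (limma adjusted p = 0.0223). Cell markers moved with age as well: of 18 macrophage markers all were lower at 16 weeks (median -0.61) and 14 fell, of 18 fibroblast and meningeal markers 16 were lower (median -0.52) and 2 fell, and of 16 sensory neuron markers 3 rose and 2 fell. Of 12 satellite glia markers 2 fell, as did 1 of 12 myelinating Schwann cell and 1 of 13 endothelial markers. The fibroblast and meningeal mean was used as a covariate here too, and Klf9 and Ciart both passed in that fit. The part of the other lists in the differences of Klf9 and Ciart was not tested.

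In DMM mice at 16 against 4 weeks 0 of the 9 genes passed in limma, beside 2.76% of genes, and 4 of the 9 and 3777 genes had an unadjusted p under 0.05. Dbp differed by 0.65 ± 0.22 (limma adjusted p = 0.108), Hlf by 0.74 ± 0.33 (limma adjusted p = 0.242), Bhlhe40 by 0.38 ± 0.17 (limma adjusted p = 0.246) and Ciart by 0.31 ± 0.14 (limma adjusted p = 0.248). Without DMM replicate 3 of 16 weeks Hlf passed, at 1.24 ± 0.28 (limma adjusted p = 0.0271).

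Arntl, whose product drives the E-box arm, was higher in DMM than in the other mice: 6.86 to 7.50 on the DMM arrays (median 7.15), 5.93 to 6.69 on the sham arrays (median 6.34) and 5.85 to 6.62 on the naive arrays (median 5.99). It rose by 1.04 ± 0.07 in DMM over naive mice over the 3 times (2.06-fold, limma adjusted p = 8.61e-08) and by 0.82 ± 0.09 over sham mice (1.76-fold, limma adjusted p = 0.000178). DMM arrays thus form a cluster of their own on the Arntl scale, and a correlation over all 25 arrays mostly sets that cluster against the others. These correlations are descriptions over arrays that share groups, and carry no p.

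Over the 25 arrays Ciart (Pearson r = -0.92, Spearman rho = -0.91) and Dbp (r = -0.91, rho = -0.85) had the 2 lowest correlations with Arntl of 20602 genes. Usp2 (r = -0.81) ranked 6 and Tef (r = -0.78) ranked 8 from the most negative, and Bhlhe40 (r = -0.53) ranked 99. Klf9 (r = -0.39), Bhlhe41 (r = -0.35), Hlf (r = -0.12) and Nfil3 (r = 0.40) were further up. Without the 2 arrays farthest from the Arntl median, DMM replicate 1 of 4 weeks and of 16 weeks, r was -0.92 for Ciart, -0.89 for Dbp, -0.77 for Usp2 and -0.78 for Tef.

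Within the 16 sham and naive arrays alone Ciart (r = -0.85), Tef (r = -0.84), Dbp (r = -0.71) and Usp2 (r = -0.69) still ran against Arntl, over arrays that differ in time and operation. Within the 9 DMM arrays the values were -0.51 for Ciart, -0.54 for Dbp, -0.12 for Usp2 and -0.11 for Tef. As deviations from group means over 24 arrays they were -0.28 for Ciart, -0.29 for Dbp, -0.44 for Usp2 and -0.23 for Tef. These smaller sets depended more on single arrays. Without the 2 arrays farthest from the Arntl median of the set, the values within DMM were -0.37 for Ciart and -0.38 for Dbp (7 arrays), and that of Dbp over sham and naive arrays was -0.60 (14 arrays). As deviations from group means, without the 2 arrays of largest Arntl deviation, they were -0.34 for Ciart, -0.40 for Dbp, -0.55 for Usp2 and -0.47 for Tef (22 arrays).

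The relation within groups was also tested over all genes, with Arntl as a covariate beside the group means. No gene of 20602 passed in limma (0%), and 697 genes had an unadjusted p under 0.05, 0 of them among the 9. The slope of Dbp was -0.55 ± 0.43 log2 units per log2 unit of Arntl (95% interval -1.44 to 0.35), that of Ciart -0.34 ± 0.28 (-0.92 to 0.24) and that of Usp2 -0.22 ± 0.13 (-0.49 to 0.05). Arntl itself varied by a residual SD of 0.154 within groups, which leaves these intervals wide.

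**Figure D5:**
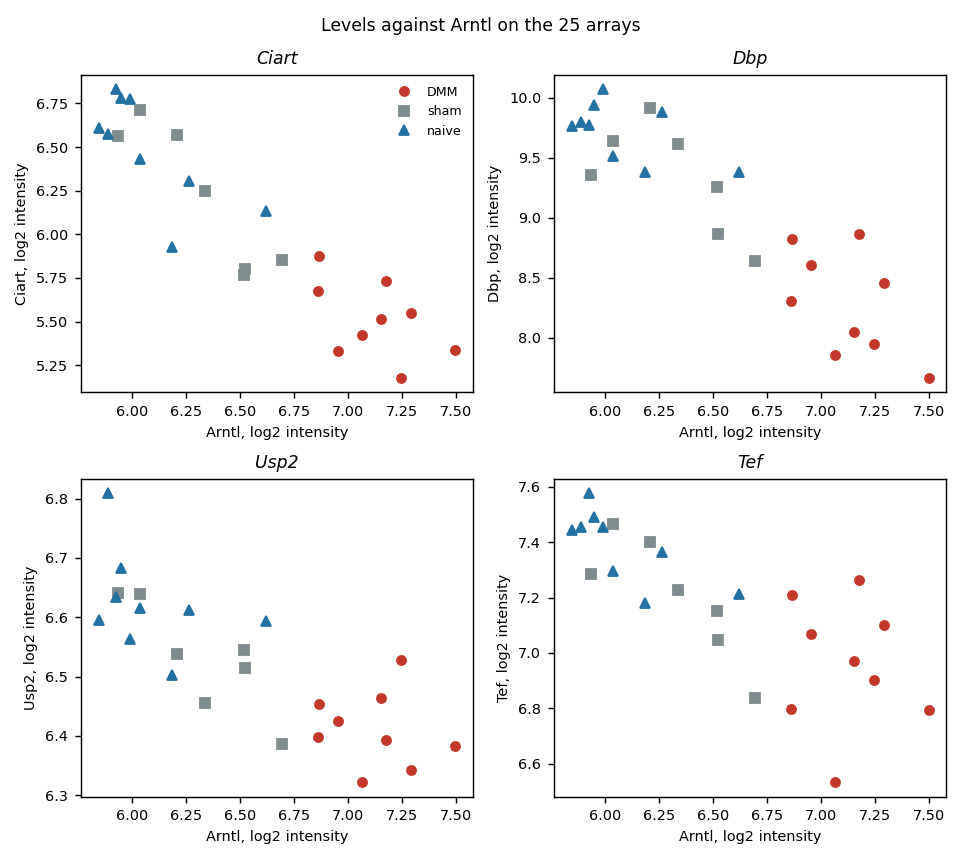
Log2 intensity of Ciart, Dbp, Usp2 and Tef (vertical axes) against that of Arntl (horizontal axes) on the 25 arrays, by treatment. DMM arrays lie at 6.86 or above on the Arntl axis and sham and naive arrays at 6.69 or below, and within the 16 sham and naive arrays the 4 genes are lower where Arntl is higher.

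The genes with profiles most like those of the 9 over the 25 arrays, by Pearson r among the genes tested, were largely other clock genes for Dbp, Tef, Ciart and Usp2. For Dbp they were Per3 (r = 0.92), Nr1d1 (r = 0.92) and Ciart (r = 0.91), and for Ciart they were Dbp, Per3 (r = 0.91) and Tef (r = 0.86). For Tef they were Per3 (r = 0.93), Dbp (r = 0.91) and Fmo2 (r = 0.90), and for Usp2 they were Per2 (r = 0.83), Per1 (r = 0.81) and Tef (r = 0.77). Hlf was most like Cldn11 (r = 0.93), Eya1 (r = 0.91) and Slc26a2 (r = 0.91).

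The remaining genes had no clock gene among their 3 nearest. Bhlhe40 was most like Slc6a6 (r = 0.81), Jam2 (r = 0.81) and Txndc16 (r = 0.81), Bhlhe41 most like Parp6 (r = 0.88), Sh3glb1 (r = 0.84) and Basp1 (r = 0.83), Klf9 most like Lhpp (r = 0.79), Sav1 (r = 0.79) and Car1 (r = 0.79), and Nfil3 most like Tmtc3 (r = 0.73), Abhd5 (r = 0.71) and Tpm4 (r = 0.71). Within groups the PAR bZIP genes ran together, with r = 0.87 for Dbp and Tef, 0.80 for Tef and Hlf and 0.75 for Dbp and Hlf, all over 24 arrays and all genes that also followed the fibroblast and meningeal markers.

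The core clock list, from which the 9 genes are kept apart, held 17 genes tested (20 listed). Between DMM and naive mice over the 3 times, 8 of them had a higher and 9 a lower mean in DMM. Their median was -0.02 against -0.01 over all genes. At an unadjusted p under 0.05 in limma were 9 of them, beside 7.32% of genes tested. Past the threshold, 1 gene rose and 3 fell. The gene that rose was Arntl, and Per2 fell by 0.68 ± 0.07, Per3 by 0.84 ± 0.10 and Nr1d1 by 1.0 ± 0.16 (limma adjusted p = 6.88e-05, 0.00027 and 0.00998). Against sham mice only Arntl of the 17 passed, with 8 of them at an unadjusted p under 0.05 in limma, beside 4.90% of genes tested. None of the 13 other KLF genes, of 5 C/EBP genes (bZIP factors related to the PAR family; 6 listed) and of 19 immediate early genes (24 listed) passed in limma against naive mice, with 1, 1 and 3 at an unadjusted p under 0.05. The nearest to the threshold in each were Klf10 (-0.21 ± 0.07, limma adjusted p = 0.447), Cebpa (-0.14 ± 0.06, limma adjusted p = 0.649) and Ier2 (0.29 ± 0.08, limma adjusted p = 0.280). The immediate early genes varied with time. Against sham, 17 of 19 had a higher mean in DMM at 4 weeks (median 0.34) and 10 of 19 at 16 weeks (median 0.03). Of these, 9 and 2 had an unadjusted p under 0.05 in limma, and 0 passed at either time. In DMM mice at 16 against 4 weeks 5 of the 19 fell, beside 2.76% of genes tested.

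Markers of the other cells of the ganglion gave the background of cell make-up in the same comparison. None of 16 sensory neuron markers (18 listed) had even an unadjusted p under 0.05 in limma, with a median of -0.01. Over the 3 times together, all 12 myelinating Schwann cell markers tested (14 listed) had a lower mean in DMM, with a median of -0.12, and 16 of 18 macrophage markers (19 listed) a higher one, with a median of 0.15. None of either list passed in limma, with 3 and 8 at an unadjusted p under 0.05. Against sham mice, 18 of 18 macrophage markers had a higher mean in DMM at 4 weeks (median 0.35) and 17 of 18 at 16 weeks (median 0.21). Of 12 Schwann cell markers, 8 had a lower mean in DMM than in sham mice at 4 weeks (median -0.04) and 7 at 16 weeks (median -0.10). Neither list had a marker past the threshold in limma against sham at these times. Against naive mice the direction of both lists varied with time. The macrophage markers were higher in DMM for 1 of 18 at 4 weeks (median -0.16), 14 of 18 at 8 weeks (median 0.22) and 18 of 18 at 16 weeks (median 0.44), with 2, 9 and 13 at an unadjusted p under 0.05 and 0 past the threshold in limma at each time. Their mean lay between 7.11 and 7.20 on the DMM, 6.67 and 6.96 on the sham and 7.22 and 7.54 on the naive arrays at 4 weeks, and between 7.02 and 7.33 on the DMM, 6.86 and 7.06 on the sham and 6.59 and 6.75 on the naive arrays at 16 weeks. The Schwann cell markers were lower in DMM for 12 of 12 at 4 weeks (median -0.15) and at 8 weeks (median -0.37) and higher for 10 of 12 at 16 weeks (median 0.16), with 2, 6 and 0 at an unadjusted p under 0.05 and 0 past the threshold in limma at each time. Of 12 satellite glia markers (14 listed), Fabp7 rose (0.63 ± 0.06, limma adjusted p = 2.22e-05). None of 13 endothelial markers (14 listed) passed, with 2 at an unadjusted p under 0.05 in limma, nor did any of the 2 red blood cell (7 listed), 5 skeletal muscle (10 listed) and 1 adipocyte marker (7 listed) tested, with 0 at an unadjusted p under 0.05 in each. Dbp and Ciart followed the macrophage markers within groups with r = 0.04 and 0.11 and the Schwann cell markers with r = 0.42 and 0.50. They ran against the sensory neuron markers, with r = -0.64 and -0.52. The part of these cells in the differences of both genes was not tested.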

How the data were processed

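RNA of lumbar dorsal root ganglia was biotin-labelled and hybridised, per the labels, to arrays whose 72685 probe sets include 65956 for transcripts. Each deposited value is the log2 intensity of a probe set on an array. That scale was read from the values, and the summary method, normalization and software that the authors used are not given here. Array medians lay between 4.88 and 4.97, and for arrays their number limits the precision.

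Probe sets were named from the platform annotation, with 827 symbols updated by Entrez identifier. Names that were synonyms of 1 gene were merged (609 probe sets, Ciart among them), and 1537 probe sets naming several genes were left out. The brightest probe set on average stood for its gene, and genes with a mean above the 40th percentile (4.52) were kept. A limma 3.58.1 model (R 4.3.3) held a mean for each of the 9 groups, fitted to the 25 arrays together, with eBayes (16 residual and 3.27 prior degrees of freedom). Tests were two-sided, with Benjamini-Hochberg adjustment over 20603 genes and a threshold of 0.05. The single sham array at 8 weeks added a mean and no spread, and no comparison between groups used that mean. The median residual SD was 0.121, which gives a 95% interval of 0.204 to each side for 3 arrays against 3. Comparisons that share naive or sham arrays are not independent. The fit was tested on simulated data.

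Named are the 9 genes, Arntl, core clock genes past the threshold, up to 3 genes of smallest p per other list, and the 3 genes most correlated with each of the 9 over 25 arrays (predicted genes left out). The genes and lists were chosen with earlier results of these data known. Nothing in the labels ties arrays of equal replicate number together. Over 21 such pairs the deviations from group means correlated between -0.355 and 0.315, with 8 pairs over 0.1, so the numbers were not treated as pairs. Promoter windows are from RefSeq (GRCm38.p6). Alternatives were other filters, normalizations, priors, array weights, fits on the arrays compared, a replicate block and each array left out in turn.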

Additional observations from a re-analysis of the deposited data

How the results depend on the processing

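The numbers of the 9 genes past the threshold are given here. For DMM against naive mice over the 3 times (2 genes), the count was 4 with genes above the 60th percentile, 4 with array weights, 3 with a replicate block, 5 with the fibroblast and meningeal covariate, and 1 with probe sets of 1 name only, where Ciart is left out. At 4 weeks (1 gene) it was 2 with array weights, 0 with only the arrays compared and 2 with the covariate. At 8 weeks (2 genes) it was 0 with only the arrays compared, 4 with the covariate and 1 with probe sets of 1 name. At 16 weeks (1 gene) it was 2 above the 60th percentile, 2 with array weights, 0 with only the arrays compared, 2 with the covariate and 0 with probe sets of 1 name. For DMM against sham mice it was 1 at 4 weeks and 1 at 16 weeks with array weights, 1 and 2 with the covariate (0 in the main analysis), and 1 over both times with probe sets of 1 name (main 2). For 16 against 4 weeks it was 1 in DMM with array weights and 1 with the covariate (main 0), and 1 in naive mice with probe sets of 1 name (main 2). The replicate block added Usp2 (adjusted p = 0.0289) and left each other count as it was. The covariate and the choice of probe sets with 1 name were added after seeing the data.

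With each array left out in turn, the count ran from 2 to 4 for DMM against naive mice over the 3 times, 0 to 1 at 4 weeks, 1 to 2 at 8 weeks and 0 to 2 at 16 weeks. It ran from 1 to 2 for DMM against sham over both times, 0 to 1 at 16 weeks, 0 to 1 for 16 against 4 weeks in DMM and 1 to 2 in naive mice, and was 0 in the other comparisons. Of the single gene values under all alternatives, 0 turned direction after passing the test. Counts over all genes moved more: DMM against naive mice over the 3 times gave 10 genes, 8 to 22 under other settings and up to 29 without DMM replicate 3 of 16 weeks; at 4 weeks 2 (0 to 21), at 8 weeks 11 (0 to 22, and up to 110 without naive replicate 3) and at 16 weeks 5 (0 to 18, and up to 326 without DMM replicate 3). For DMM against sham they gave 3 (2 to 12, the highest without DMM replicate 3 of 16 weeks), and 0 to 7 and 0 to 11 at 4 and 16 weeks, for sham against naive 63 (0 to 617) at 4 weeks and 1 (0 to 74, the highest without naive replicate 3) at 16 weeks, and for 16 against 4 weeks 3832 (2166 to 5331) in naive and 568 (4 to 911) in DMM mice. The causes were not tested. A second probe set per gene was not tried, since none of the 9 genes has one, and Nfil3 is not kept above the 60th percentile. Nfil3 in all groups and Ciart in DMM mice lie near background, which limits what their values can show.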
